A study of Rattus norvegicus with 20 samples.

Results

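The ratio of each transcript between sprouting and non-sprouting cortical neurons was compared between the day 21 and the day 7 group of rats with a stroke. All 20 arrays of the series entered this comparison, from 5 animals of day 21 and 5 animals of day 7, with 2 arrays per animal. Each array carried both cell types of 1 animal in different dyes, and the second array of the animal had the dyes swapped. The value of a gene in an animal is the log2 ratio of sprouting over non-sprouting neurons, averaged over both arrays, and the quantity tested is the ratio at day 21 minus the ratio at day 7. A positive difference therefore means that the gene stood higher in sprouting neurons, relative to non-sprouting neurons of the same animal, at day 21 than at day 7. The comparison covered 33091 genes.

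The day 21 and day 7 animals were rats aged 2 months, all with a stroke, from separate cohorts. In both groups a cholera toxin B tracer coupled to Alexa 488 was placed in peri-infarct cortex. The site received the same toxin coupled to Alexa 647 after 21 days in the day 21 animals and after 7 days in the day 7 animals. About 300 neurons of each type were cut out by laser 7 days after the second tracer, and their RNA went through 2 rounds of T7 amplification. The day of a group is therefore that of its second tracer, and its neurons were taken 7 days later. Below, 'at day 21' and 'at day 7' refer to these groups. No animal without a stroke entered the comparison, and the identity of the 2 cell types rests on the labels.

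Axonal sprouting after stroke is the growth of new branches by surviving neurons beside the dead tissue. Tracers that travel back along axons can mark it: a first tracer fills the neurons that already project to a site, and a neuron that carries the second tracer alone has reached the site since. Growth of this kind draws on cytoskeletal proteins, guidance receptors, growth factors and transcription factors, and is restrained by myelin and matrix molecules that act through receptors on the axon. A ratio that differs between days can come from sprouting neurons, from non-sprouting neurons or from both, so the level in each cell type is given below beside the ratio.

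Median spot signals in Cy5 were 109 to 344.7 units on the day 21 arrays and 98.75 to 305.3 units on the day 7 arrays. The share of probes well above background, per channel, was 40.3% to 88.5% on the day 21 arrays and 67.1% to 94.6% on the day 7 arrays. All 13 measured markers of glutamatergic projection neurons were well above background in both cell types on both days. Day 21 replicate 4 stood apart from the others. The ratios of its 2 arrays correlated at r = -0.36 across genes (genes are no independent replicates), where the other day 21 animals gave 0.33 to 0.73 and the day 7 animals 0.59 to 0.73. Its averaged ratios therefore have no settled direction. A dye label turned on 1 of its arrays, with which the average would cancel toward 0, and a failed hybridisation cannot be told apart. Only 0.00907% of its averaged ratios lay beyond 0.5 on the log2 scale, against 1.22% to 5.42% in the other day 21 animals and 2.13% to 5.11% in the day 7 animals.

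**Figure D1:**
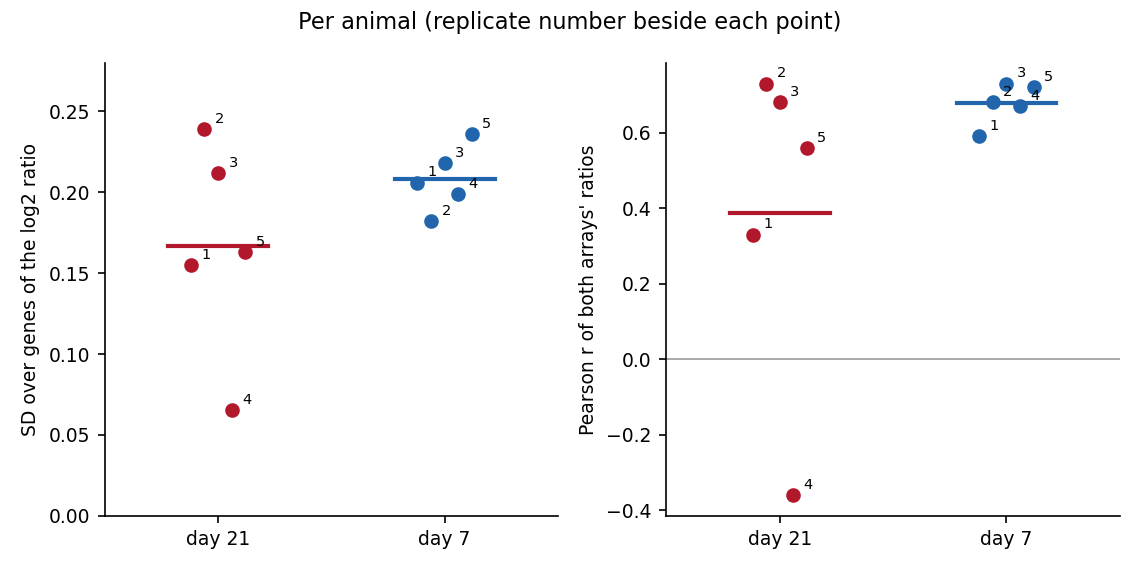
Each point is an animal, with its replicate number beside it, and the bar is the mean of 5 animals. The left axis is the standard deviation over genes of the log2 ratio and the right axis is the Pearson correlation across genes between the ratios of the animal's 2 arrays. Day 21 replicate 4 lies lowest on both, at 0.0651 and -0.36.

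The overall size of the difference between the cell types was compared first. The standard deviation over genes of the log2 ratio was 0.155, 0.239, 0.212, 0.0651 and 0.163 in the day 21 animals, against 0.206, 0.182, 0.218, 0.199 and 0.236 in the day 7 animals. The values of the days overlapped, and their means of 0.167 ± 0.0668 at day 21 and 0.208 ± 0.0204 at day 7 (SD, n = 5 each) gave p = 0.23 by an exact two-sided permutation test (where 0.00794 is the smallest p possible). Without day 21 replicate 4 the difference of the means was -0.0161 in place of -0.0416 (exact p = 0.444). Without day 21 replicate 2, whose value was the highest, it was -0.0597 (exact p = 0.0476). With the processed signals of the scanner software it was 0.0469 (exact p = 0.579), so that the sign turned. On average 2.38% ± 2.1 of the genes had a ratio beyond 0.5 on the log2 scale in either direction in a day 21 animal, against 3.69% ± 1.11 in a day 7 animal (SD, n = 5 each, exact permutation p = 0.238).

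No gene passed the test of the difference between days. By limma with Benjamini-Hochberg adjustment over 33091 genes, 0 genes had an adjusted p under 0.05 (0% called), and the smallest adjusted p was 0.506. At an unadjusted p under 0.05 there were 1340 genes, or 4.05%, where 1655 would be expected from chance alone. Of these, 767 (2.32% of all genes) were higher at day 21 and 573 (1.73%) lower, which makes 57.2% higher. That split moved with the normalization, to 38.7% higher with the processed signals and 68.6% higher with median centring in place of loess. The animals of the days did not overlap for 168 genes higher at day 21 (0.508%) and 100 genes lower (0.302%). The median standard error of a difference was 0.0737 on the log2 scale, and 129 genes differed by more than 0.5 and 4 genes by more than 1.

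Another treatment of the arrays gave 4 calls. When the 20 arrays entered the fit as single values, with a dye term and a random block for each animal, 4 genes (0.0121%) had an adjusted p under 0.05. They were Htr7 (0.79, adjusted p = 0.0408), Olfm3 (-0.44, adjusted p = 0.0471), and 2 transcripts that carry only a clone or cluster name, BF284864 (0.67, adjusted p = 0.0189) and TC525833 (0.45, adjusted p = 0.00236). With 1 value per animal the same 4 had adjusted p = 0.943, or 0.506 for TC525833. The 2 arrays of an animal hold the same RNA and are 1 replicate, whereas this fit took its error over arrays. It also gave all animals the same correlation between their arrays, 0.578, although the arrays of day 21 replicate 4 disagreed. The 4 calls are therefore a description and no support. The last 2 were named after their values were seen.

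The genes described next are those with a gene symbol, measured in all 10 animals and well above background in both cell types on both days, that had the 15 smallest p-values in each direction. They were picked for small p-values from 12259 such genes, so that the lack of overlap between days, which holds for 24 of the 30, is a description and no support. All 30 had adjusted p = 0.943 by limma. The mean ratio lay on opposite sides of 0 at day 21 and at day 7 in all 30. Over all genes the 2 days' mean ratios had the same sign in 57.7%, whereas they had opposite signs in 1168 of the 1340 genes at an unadjusted p under 0.05, since picking genes for a difference favours opposite signs.

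Among receptors and ion channels, Htr7, a serotonin receptor that raises cyclic AMP, had the widest difference. Htr7 was also listed among the genes known from axon growth or from earlier results. Its ratio nearer 0 at day 21 is therefore a description and no support. Its log2 ratio was -0.33, 0.21, 0.11, 0.03 and 0.16 in the day 21 animals, against -0.4, -0.81, -0.37, -0.99 and -1.19 in the day 7 animals. The groups did not overlap, but the gap between day 21 replicate 1 and the highest day 7 animal was small. The means were 0.04 ± 0.21 at day 21 and -0.75 ± 0.36 at day 7 (SD, n = 5 each), a difference of 0.79 ± 0.17 (SE), or 1.73-fold. The level of Htr7 moved by 0.25 in sprouting neurons and by -0.54 in non-sprouting neurons on the log2 scale. A second, dimmer probe for Htr7 gave a difference of 0.03.

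Kcna1, a voltage-gated potassium channel subunit found in axons, was the widest in the other direction. Its ratio was 0, -0.13, -0.49, -0.03 and -0.07 in the day 21 animals, against 0.71, 0.78, -0.04, 0.59 and 0.47 in the day 7 animals. Day 7 replicate 3 lay among the day 21 animals, and the other 4 day 7 animals lay above all of them. The difference was -0.64 ± 0.15 (SE), with means of -0.14 ± 0.2 at day 21 and 0.5 ± 0.32 at day 7 (SD, n = 5 each), and the second probe gave -0.51. The level of Kcna1 moved by -0.46 in sprouting neurons and by 0.18 in non-sprouting neurons.

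Cacna1b, the pore subunit of N-type calcium channels at nerve terminals, had ratios of 0.01, 0.59, 0.02, 0.01 and -0.1 in the day 21 animals, against -0.51, -0.21, -0.25, -0.47 and -0.72 in the day 7 animals. The groups did not overlap, and day 21 replicate 2 was far above the other day 21 animals. The difference was 0.54 ± 0.14 (SE), while the second probe gave 0.01. Gpr83, a G protein-coupled receptor of the brain, averaged 0.24 ± 0.16 at day 21 and -0.24 ± 0.22 at day 7 (SD, n = 5 each), with day 7 replicate 2 at 0.09 inside the day 21 range of 0.04 to 0.45. It was the gene of the 15 whose sprouting level moved most upward, by 0.64, against 0.16 in non-sprouting neurons.

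Several of the 30 genes act in membrane traffic and secretion. Olfm3, a secreted olfactomedin glycoprotein, had ratios of -0.06, -0.35, -0.19, 0.02 and -0.14 in the day 21 animals, against 0.12, 0.32, 0.25, 0.56 and 0.25 in the day 7 animals. No animals overlapped, the difference was -0.44 ± 0.09 (SE), and the second probe gave -0.14. Kdelr1, which returns resident proteins to the endoplasmic reticulum, averaged -0.16 ± 0.08 at day 21 and 0.07 ± 0.07 at day 7 (SD, n = 5 each). Ap1s2, a subunit of a clathrin adaptor complex, differed by -0.37 ± 0.09 (SE), and its groups met at 0.01 and 0. Nbea, a scaffold that carries membrane proteins to synapses, differed by 0.32 ± 0.08 (SE) on its brightest probe, whereas its 4 other probes gave 0.03 to 0.05. Atp2c1, a calcium and manganese pump of the Golgi, differed by 0.21 ± 0.05 (SE), and its second probe gave -0.1.

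Others of the 30 genes encode kinases and exchange factors. Rapgef3, an exchange factor for Rap that is switched on by cyclic AMP, had ratios of -0.18, -0.16, -0.19, 0 and -0.15 in the day 21 animals, against 0.14, 0.03, 0.3, 0.11 and 0.18 in the day 7 animals. The groups did not overlap, and the day 21 animal nearest to 0 was replicate 4. Pdk3, a kinase that restrains pyruvate dehydrogenase, differed by -0.37 ± 0.07 (SE) with a second probe at -0.19. Pik3cd, a catalytic subunit of phosphoinositide 3-kinase, differed by -0.26 ± 0.06 (SE), and Mapkapk5, a kinase downstream of MAP kinases, by -0.31 ± 0.07 (SE). Ric8a, a chaperone and exchange factor of G protein alpha subunits, had a difference of 0.18 ± 0.04 (SE) and a second probe at 0.03.

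Nrip3, a nuclear receptor-interacting protein, had the smallest p of the 30 genes (unadjusted p = 0.00027). Its ratio was 0.07, -0.08, -0.04, 0 and -0.08 in the day 21 animals, against 0.36, 0.2, 0.18, 0.31 and 0.2 in the day 7 animals. The groups did not overlap, and the level moved by -0.54 in sprouting neurons and by -0.26 in non-sprouting neurons. Nrep, a small protein named for its link to neuronal regeneration, had ratios of 0, 0.01, -0.09, -0.04 and -0.59 in the day 21 animals, against 0.49, 0.38, 0.21, 0.56 and 0.26 in the day 7 animals. All day 21 animals lay below all day 7 animals, and day 21 replicate 5 lay far below the rest. Its difference was -0.52 ± 0.12 (SE).

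**Figure D2:**
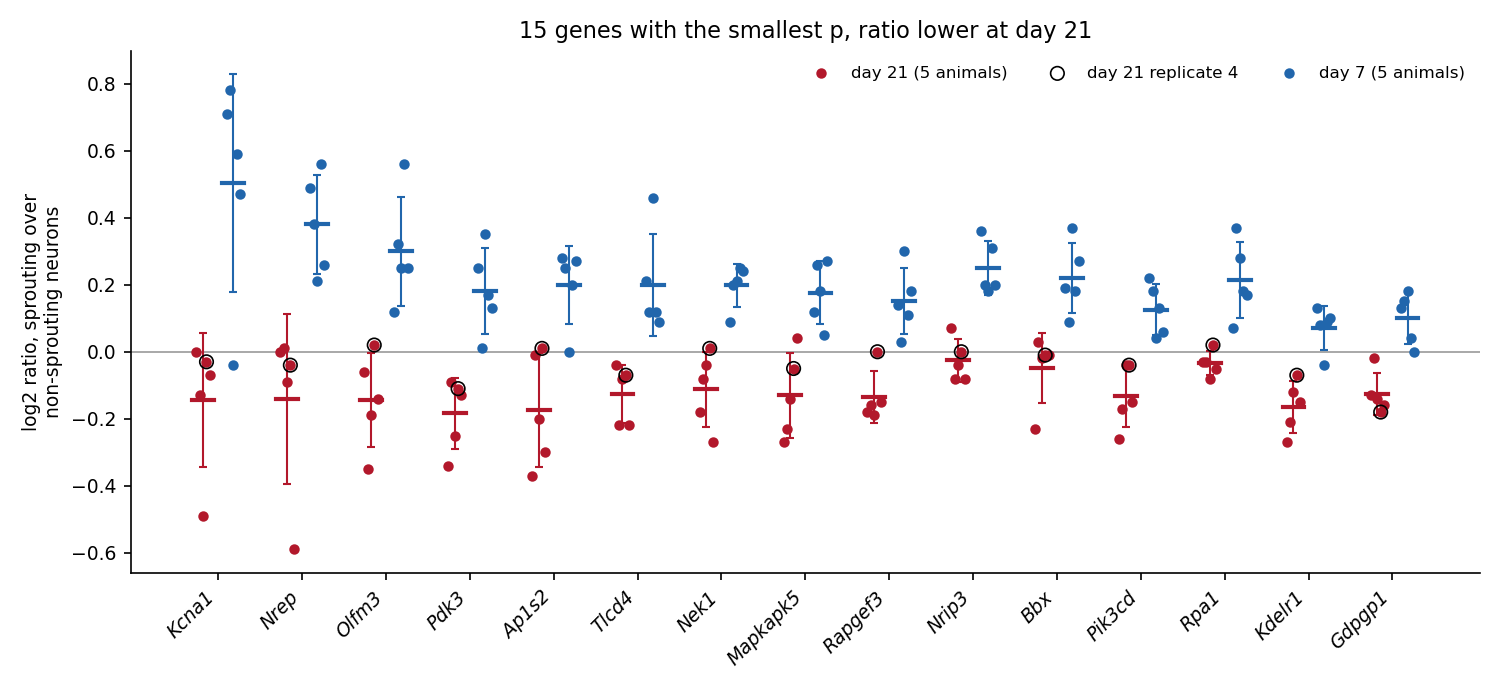
Log2 ratio of sprouting over non-sprouting neurons (vertical axis) of the 15 genes with the smallest p and a lower ratio at day 21, ordered by the size of the difference; points are animals, thick bars means and thin bars SD (n = 5). The day 21 mean lies below 0 and the day 7 mean above it in each gene, and day 7 replicate 3 lies at -0.04 for Kcna1, among the day 21 animals. Circles mark day 21 replicate 4, which lies at -0.18 for Gdpgp1 and at 0.02 for Olfm3.

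Further genes relate to microtubules, centrosomes and filaments. Katnal1, related to the microtubule-severing enzyme katanin, had ratios of 0.08, 0.3, 0.43, 0.01 and 0.24 in the day 21 animals, against -0.07, -0.02, -0.47, -0.22 and -0.11 in the day 7 animals. The groups were separated by the gap between day 21 replicate 4 and day 7 replicate 2. Cetn3, a centrin of centrioles, differed by 0.3 ± 0.07 (SE), and Bfsp1, an intermediate filament protein known from the lens, by 0.45 ± 0.1 (SE). Nek1, a kinase of cilia and the DNA damage response, differed by -0.31 ± 0.06 (SE), with -0.11 ± 0.11 at day 21 and 0.2 ± 0.06 at day 7 (SD, n = 5 each).

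The rest include genes of RNA, DNA and organelles. Rbm27, an RNA-binding protein, had ratios of -0.03, 0.09, 0.17, -0.04 and 0.21 in the day 21 animals, against -0.26, -0.27, -0.16, -0.1 and -0.27 in the day 7 animals. The groups did not overlap, yet 2 further probes gave differences of 0.05 and -0.14 where the brightest gave 0.29. Its level was lower at day 21 in both cell types, by -0.56 in sprouting and -0.85 in non-sprouting neurons. Prpf4b, a kinase of the splicing machinery, differed by 0.19 ± 0.05 (SE), with a second probe at -0.06. Dtd2, which clears mischarged transfer RNA, differed by 0.18 ± 0.04 (SE), and Noa1, a mitochondrial GTPase, by 0.35 ± 0.09 (SE). On the lower side Rpa1, a subunit of the protein that binds single-stranded DNA, differed by -0.25 ± 0.06 (SE), and Bbx, an HMG-box transcription factor, by -0.27 ± 0.07 (SE). The transcription regulator Ripply2 (0.29) and C2h5orf34 (0.3) stood higher, and the sugar-nucleotide enzyme Gdpgp1 (-0.23) and the membrane protein Tlcd4 (-0.33) lower. Tlcd4 had a second probe at -0.35.

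**Figure D3:**
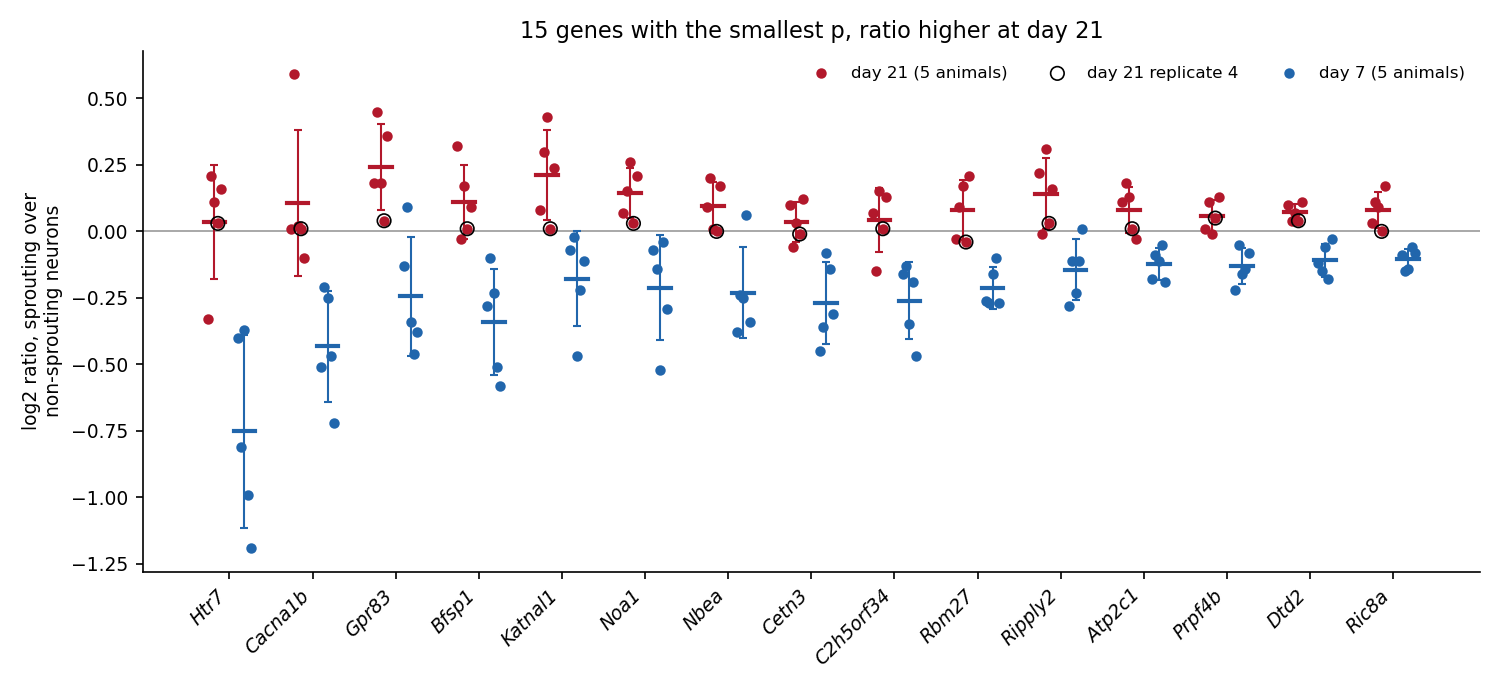
Log2 ratio of sprouting over non-sprouting neurons (vertical axis) of the 15 genes with the smallest p and a higher ratio at day 21, ordered by the size of the difference; points are animals, thick bars means and thin bars SD (n = 5). Htr7 has the widest difference of the means, 0.79, and circles mark day 21 replicate 4.

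Probes of the same gene differed in how far they bore out the brightest one. Of the 15 genes higher at day 21, 7 had further probes, 11 in all, whose differences lay between -0.14 and 0.05. Of the 15 genes lower at day 21, 5 had a further probe, and these gave -0.51 to -0.09. Whether the probes read different transcripts was not tested.

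The ratio difference is the change of level in sprouting neurons minus that in non-sprouting neurons. In the 15 genes with a higher ratio, the non-sprouting level was lower at day 21 in 14 and moved further than the sprouting level in 11, with Gpr83, Bfsp1, Noa1 and Ric8a the other 4. In the 15 genes with a lower ratio, the sprouting level was lower at day 21 in all 15, and it moved further than the non-sprouting level in all 15. Over all genes the sprouting level moved further in 52.4%, and in 51.6% of those at an unadjusted p under 0.05. By limma 0 genes passed an adjusted p of 0.05 for the level in either cell type. At an unadjusted p under 0.05 there were 2929 genes in sprouting neurons (8.85%), 2095 of them lower at day 21. In non-sprouting neurons there were 2969 (8.97%), 2143 of them lower. Most of these levels were thus lower at day 21 in both cell types, and the 30 genes were picked for their ratio. The falls counted in the 30 genes are therefore a description and no support. Levels between days, unlike ratios, also carry the differences between animals and hybridisations, and among the 30 genes 7 had an unadjusted p under 0.05 for sprouting and 8 for non-sprouting neurons. With no normalization between arrays the counts over all genes were 1192 and 1124, with 1128 and 1066 of them lower.

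**Figure D4:**
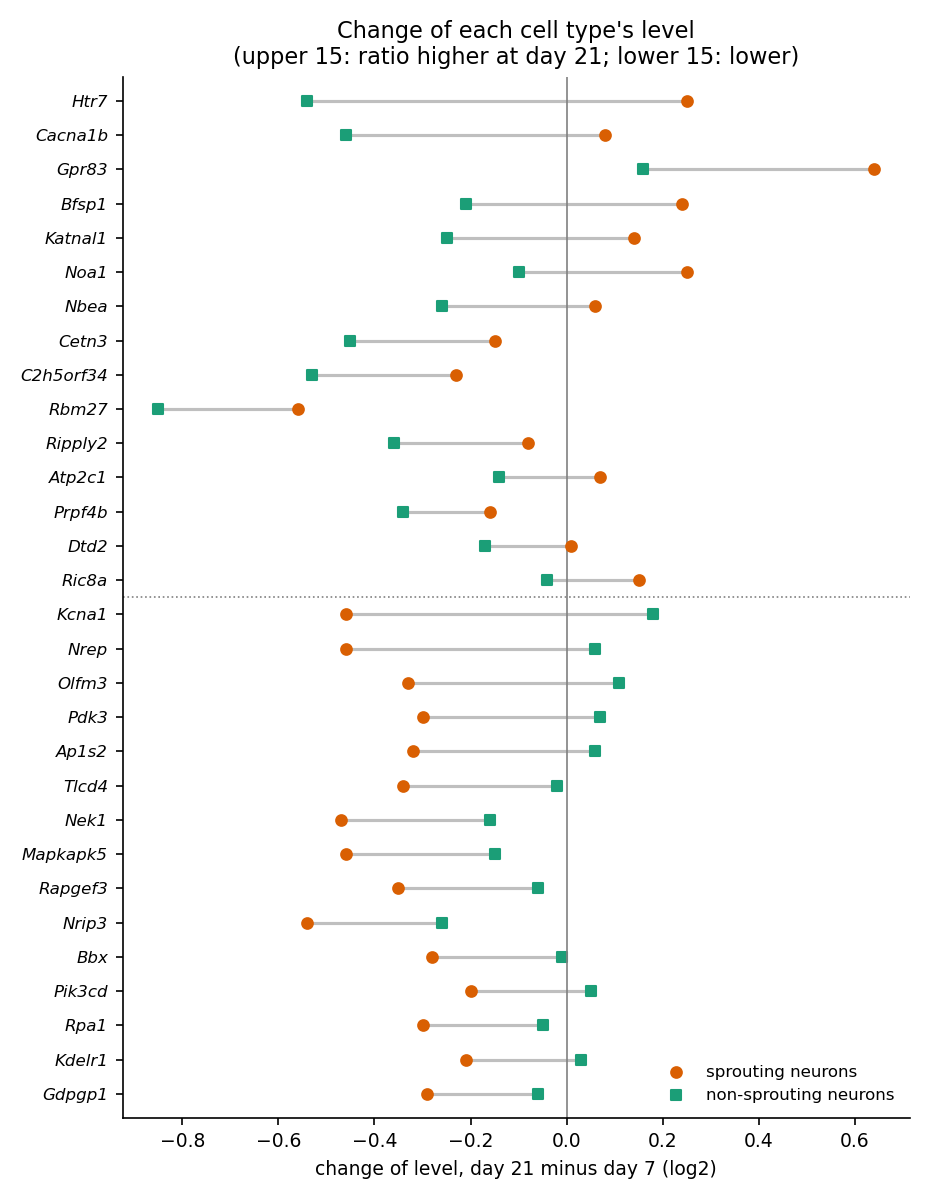
Change of the log2 level at day 21 minus day 7 (horizontal axis) in sprouting neurons (circles) and non-sprouting neurons (squares) for the 30 genes, after Aquantile normalization; the length of the line between the symbols is the ratio difference. In the upper 15 genes most squares lie left of 0, and in the lower 15 genes all circles do.

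The arrays were scanned in 5 sessions, and day 7 replicates 1 and 2 were scanned apart from the rest, each in a session of its own. A session held day 21 replicates 2 and 3, day 7 replicate 5 and 1 array of day 7 replicate 3, which was left out without its dye swap. Between the other 3 animals of that session the difference was 1.35 for Htr7 and -0.78 for Kcna1. Within the session of day 21 replicate 5 and day 7 replicate 4 it was 1.15 for Htr7 and -0.66 for Kcna1. The genes were picked on these same animals, so that values within sessions are a description and no support. The third session with both days held the other array of day 7 replicate 3 as its only array of day 7, and gives no value. Over both arrays day 7 replicate 3 had ratios of -0.37 for Htr7 and -0.04 for Kcna1, against -1.19 and 0.47 in day 7 replicate 5. Over all genes 1884 had an unadjusted p under 0.05 with the scan session as a block, and 1191 without day 21 replicate 4, with 0 past the adjustment in both.

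Genes known from axon growth or from earlier results showed no difference between days that passed the test. Gap43, the growth cone protein, had ratios of -0.31, 0.38, -0.37, 0.1 and 0.2 in the day 21 animals, against -0.25, -0.41, 0.02, -0.17 and -0.37 in the day 7 animals. The groups overlapped over most of their range, and the 95% interval of the difference was -0.1 to 0.57. The Gap43 probe was saturated on 7 of the 20 arrays, where a ratio can be understated. For Stmn2, a microtubule regulator of growth cones, the interval was -0.25 to 0.21, and for Sox11, a transcription factor of regrowth, -0.06 to 0.24. Atf3, a transcription factor induced by axon injury, had a wide interval of -0.73 to 0.8, and Jun, its partner in that response, one of 0 to 0.5. Among growth factors and their receptors, the intervals were -0.68 to 0.32 for Igf1, -0.13 to 0.1 for its receptor Igf1r, -0.33 to 0.35 for Gdf10 and -0.17 to 0.9 for Bdnf. Among receptors and ligands that restrain or steer axons they were -0.31 to 0.27 for the Nogo receptor Rtn4r, -0.21 to 0.03 for its partner Lingo1, -0.21 to 0.12 for Epha4 and -0.15 to 0.15 for Efna5. The chromatin remodeller Atrx had -0.86 to 0.6 and its partner Daxx -0.26 to 0.2. Plekhh2 (-0.14 to 0.24) and the RNA-binding protein Syncrip (-0.13 to 0.19) completed the set. Adjusted p-values of these genes were 0.943 to 0.999 by limma.

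A further 6 genes had been chosen for their ratio at 1 of the days, so that a ratio nearer 0 on the other day is a description. Htr7 and Kdelr1, given above, were also listed among the genes known from axon growth or from earlier results. For Htr7 and Kdelr1 too, a ratio nearer 0 on 1 of the days is therefore a description. Stim2, which senses calcium stores in the endoplasmic reticulum, had ratios of 0.04, 0.35, 0.4, -0.1 and 0.09 in the day 21 animals, against 0.44, 0.33, 0.32, 0.53 and 0.48 in the day 7 animals. Day 21 replicates 2 and 3 lay within the day 7 range and the other 3 below it (difference -0.26 ± 0.1, SE; second probe -0.26). Srp72, part of the particle that guides nascent secretory proteins, averaged 0.2 ± 0.16 at day 21 and 0.42 ± 0.16 at day 7 (SD, n = 5 each). Rasgrp1, an activator of Ras, averaged 0.13 ± 0.21 at day 21 and 0.45 ± 0.13 at day 7, and Lhx2, a transcription factor of cortical development, -0.01 ± 0.23 at day 21 and -0.47 ± 0.19 at day 7 (SD, n = 5 each). Itgb6, an integrin subunit (-0.23 ± 0.09 at day 21 and -0.04 ± 0.13 at day 7), and Fmnl1, a formin (-0.31 ± 0.1 at day 21 and -0.08 ± 0.19 at day 7), were farther from 0 at day 21 (SD, n = 5 each). All 6 had adjusted p = 0.943 by limma.

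Gene lists are described by counts and medians, beside the same over all genes, where the median difference was 0.004, 52.4% of the genes were higher at day 21, and 4.05% had an unadjusted p under 0.05. In none of the 31 lists did the animals' medians separate the days. Over the 22 pathway lists the median difference lay between -0.098 and 0.042. Of the 1166 genes measured in any list, 13 at an unadjusted p under 0.05 were higher and 33 lower, and 0 passed the adjustment.

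**Figure D5:**
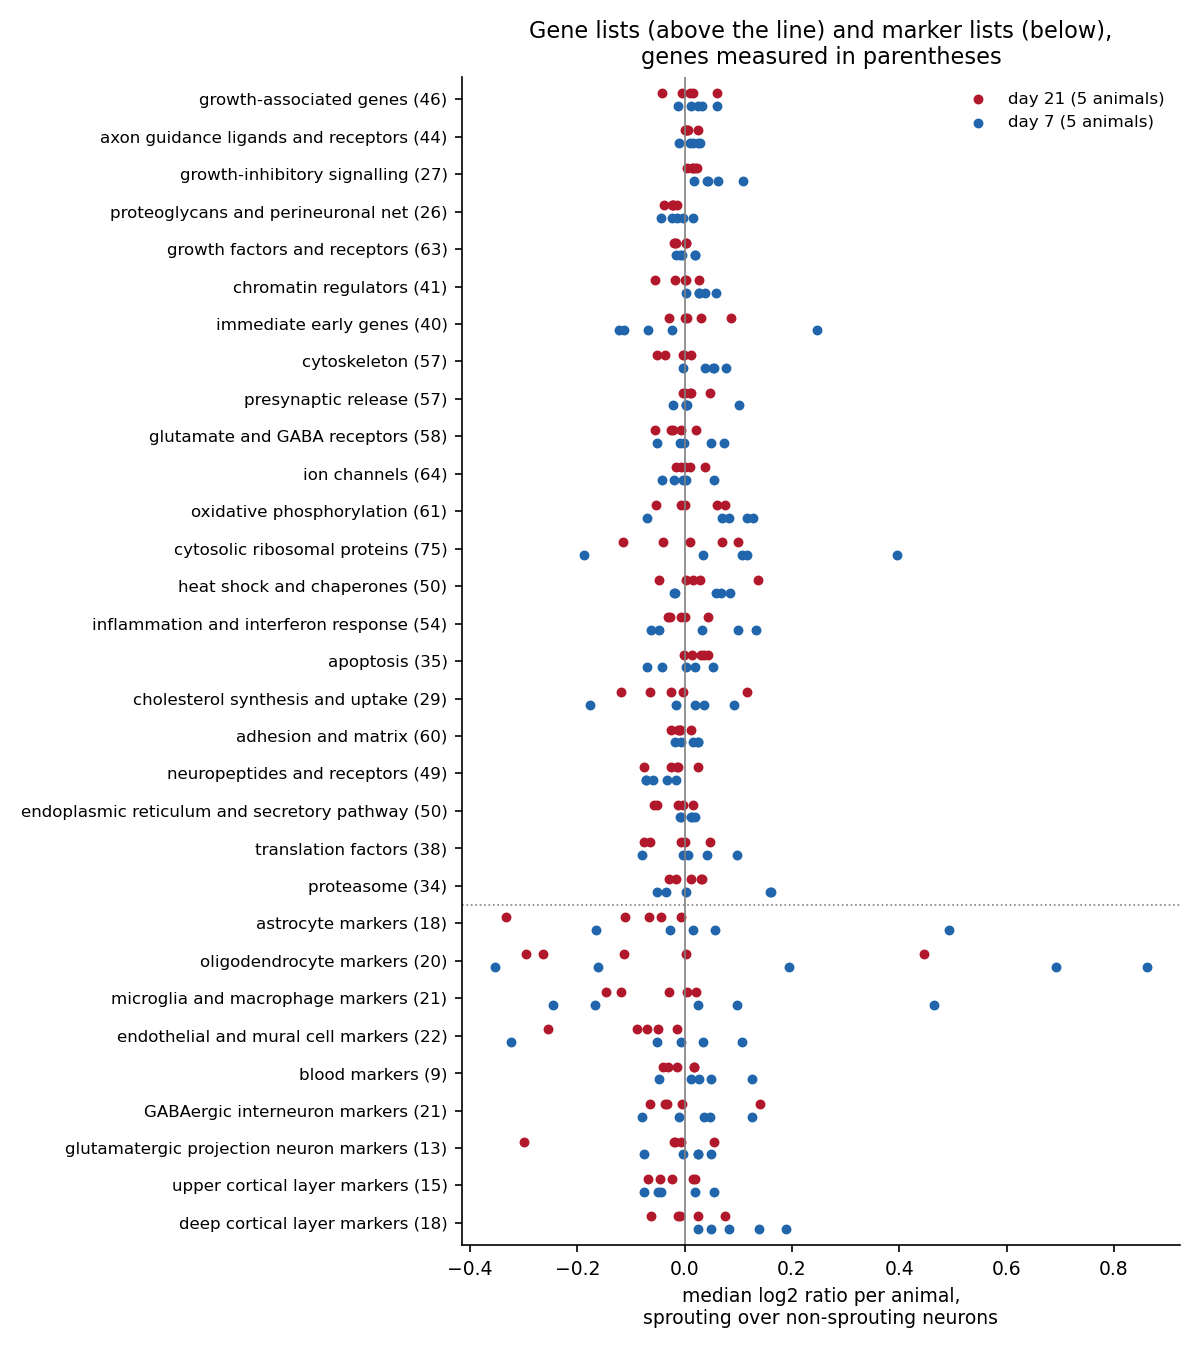
Median log2 ratio over the genes of a list in each animal (horizontal axis), for 22 pathway lists and 9 marker lists with the number of genes measured in parentheses; red points are day 21 animals and blue points day 7 animals. The days overlap in every list, and the oligodendrocyte markers span the widest range, from -0.30 to 0.45 at day 21 and from -0.35 to 0.86 at day 7.

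Among the 46 genes linked to axon growth 21 stood higher at day 21 and 25 lower (median -0.015, and 0.027 with median centring), and 1 gene reached an unadjusted p under 0.05. That was Lgals1, galectin-1, at -0.1 ± 0.1 at day 21 and 0.15 ± 0.14 at day 7 (SD, n = 5 each). Klf6, a transcription factor of regrowth, had ratios of 0, 0.58, 0.78, 0 and 0.1 in the day 21 animals, against -0.08, 0.09, -0.01, -0.08 and -0.03 in the day 7 animals. Of the day 21 animals, replicates 2 and 3 stood apart above all others. The difference for Klf6 was 0.31, while a second probe gave 0.09. Of the 44 genes of axon guidance 27 were lower (median -0.007), and Dscam, an axonal adhesion receptor, was the only 1 at an unadjusted p under 0.05, with a difference of -0.17. Of 27 genes of growth-inhibitory signalling 20 were lower, with a median of -0.057. Limk2, a kinase that acts on cofilin, stood at 0.25 (second probe -0.02), with an unadjusted p under 0.05. The 26 genes of proteoglycans and perineuronal nets split evenly (median 0), and none had an unadjusted p under 0.05. Of 63 growth factors and receptors 36 were higher (median 0.012, and -0.029 with the processed signals), and Pdgfa, a platelet-derived growth factor, stood at -0.22 ± 0.07 (SE).

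The cytoskeleton list had a median of -0.068, with 40 of 57 genes lower and 5 of them at an unadjusted p under 0.05, or 8.77%. With median centring in place of loess the median was 0.019. Cfl2, a cofilin that severs actin, was the only 1 whose animals did not overlap, at -0.03 ± 0.07 at day 21 and 0.13 ± 0.09 at day 7 (SD, n = 5 each), while its 3 other probes gave -0.1, -0.02 and 0.1. Of 60 genes of adhesion and matrix 34 were lower (median -0.013, and 0.026 with median centring), with 5 at an unadjusted p under 0.05. Pcdh19, a protocadherin, was the 1 of them on the higher side, at 0.23 ± 0.07 (SE).

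Synaptic and excitability lists were near 0. Their medians were -0.002 for 57 genes of presynaptic release and -0.023 for 58 glutamate and GABA receptor genes (0.008 with median centring). They were 0.027 for 64 ion channels and 0.042 for 49 neuropeptides and receptors, the serotonin receptor Htr7 among them. The list of glutamate and GABA receptors had 0 members at an unadjusted p under 0.05. Cacna1d, a pore subunit of L-type calcium channels, stood at 0.37 ± 0.13 (SE), with another probe at -0.17. Grp, gastrin-releasing peptide, had ratios of 0.45, -0.03, 0.77, -0.1 and 0.35 in the day 21 animals, against -0.2, -0.46, 0.55, -1.61 and -0.91 in the day 7 animals, which overlapped through day 7 replicate 3. Nts, neurotensin, had ratios of -0.92, -0.86, -0.77, 0.11 and 0.11 in the day 21 animals, against 0.15, -0.18, 0.16, 0.04 and 2.88 in the day 7 animals. The groups overlapped, and day 7 replicate 5 stood far above every other animal.

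Of 40 immediate early genes, which respond to neuronal activity, 27 were higher (median 0.038). The median ranged from 0.011 without day 21 replicate 1 to 0.079 without day 7 replicate 1. Egr2, a transcription factor of this group, had ratios of 0.35, 0.47, 0.61, -0.01 and 0.35 in the day 21 animals, against 0.42, -1.14, -0.31, -1.39 and -1.26 in the day 7 animals. Day 7 replicate 1 lay among the day 21 animals, and the other 4 day 7 animals lay below all of them. The difference was 1.09 ± 0.32 (SE, unadjusted p = 0.0065, adjusted p = 0.943 by limma). Rgs2, a regulator of G protein signalling, stood at 0.36 ± 0.14 and Maff, a small Maf protein, at -0.11 ± 0.05 (SE). Day 7 replicate 1 was also the animal with the highest median of the whole list, 0.246.

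Lists of protein synthesis and energy had lower medians with loess and higher ones with median centring. For cytosolic ribosomal proteins the median was -0.098, with 66 of 75 genes lower, and 0.09 with median centring. Without day 7 replicate 5 it was -0.025, and without day 7 replicate 1 it was -0.178. The animals' list medians were 0.07, -0.115, 0.099, 0.009 and -0.04 at day 21, against -0.188, 0.035, 0.106, 0.116 and 0.395 at day 7, so that the day 7 animals spanned the whole day 21 range. Only Rps20 reached an unadjusted p under 0.05 (-0.37, second probe -0.31). Oxidative phosphorylation had a median of -0.059 over 61 genes (0.094 with median centring), translation factors -0.051 over 38 genes (0.093) and the proteasome -0.027 over 34 genes (0.134). Among translation factors Eif4e, which binds the messenger cap, stood at 0.22 ± 0.07 (second probe 0.07) and the elongation factor Eef2 at -0.31 ± 0.13 (SE). Eif5b, which the naming rule did not take, had the largest difference of that list, 0.43 (unadjusted p = 0.012 by limma).

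The remaining lists had few members at an unadjusted p under 0.05. Chromatin regulators had a median of -0.028 over 41 genes (0.031 with median centring), with Tet2, a DNA demethylase, at -0.09. Inflammation and interferon response genes had -0.06, with 41 of 54 lower. Rsad2, an interferon-induced antiviral protein, had ratios of -0.33, -0.53, -0.38, 0.06 and -0.27 in the day 21 animals, against 0.24, 1.31, 0.3, -0.15 and 1.59 in the day 7 animals, and 2 day 7 animals, replicates 2 and 5, stood above 1. Its second probe gave 0. For genes of the endoplasmic reticulum and secretory pathway the median was -0.026 over 50 genes (0.064 with median centring), for heat shock proteins and chaperones 0.002 over 50, for apoptosis 0.02 over 35 genes, and for cholesterol synthesis and uptake 0.012 over 29. Npc1, a cholesterol transporter of lysosomes, stood at -0.34 ± 0.11 (SE), with its 4 other probes between -0.24 and 0.01.

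Markers of cells other than neurons were measured in the same way. Oligodendrocyte markers had a median difference of -0.31, with 18 of 20 measured genes lower, and all 20 were well above background in both cell types on both days. The median was -0.477 without day 21 replicate 1, -0.468 without day 7 replicate 1, -0.14 without day 7 replicate 4 and -0.105 without day 7 replicate 5. It was -0.203 with median centring and -0.58 with the scan session as a block. The animals' medians were 0.446, -0.265, -0.296, 0.002 and -0.113 at day 21, against -0.354, 0.194, -0.161, 0.693 and 0.862 at day 7. Day 7 replicates 4 and 5 were the highest, and each day had animals on both sides of 0. The summed level of these markers was 24100 to 77600 units in sprouting neurons at day 21 and 47100 to 123000 at day 7, and in non-sprouting neurons 31100 to 62300 at day 21 and 53000 to 105000 at day 7. Fewer cells of a type and less RNA per cell cannot be told apart in such samples. Of 18 astrocyte markers 15 were lower (median -0.16, and -0.047 without day 7 replicate 5), of 21 microglia and macrophage markers 15 (median -0.108, and -0.014 without day 7 replicate 2), of 22 endothelial and mural cell markers 16 (median -0.027, and 0.001 with median centring) and of 9 blood markers 5 (median -0.051). The endothelial and mural median was -0.134 without day 7 replicate 3 and -0.01 without day 7 replicate 4, and the blood median was 0.019 without day 7 replicate 3, 0.001 without day 21 replicate 1 and -0.018 without day 7 replicate 4. The summed level of the astrocyte markers was 33000 to 45300 units in sprouting neurons at day 21 and 43200 to 57400 at day 7, and in non-sprouting neurons 36600 to 52900 at day 21 and 43000 to 63300 at day 7. The part of these cells in the differences above was not tested. Cnp, a myelin enzyme, had ratios of 0.16, -0.31, -0.4, 0.04 and -0.11 in the day 21 animals, against -0.13, 0.23, 0.18, 0.48 and 0.51 in the day 7 animals. The groups overlapped through replicate 1 of each day. When the fit took the oligodendrocyte median of each animal as a covariate, 0 genes passed an adjusted p of 0.05, and the smallest was 0.0742 for Htr7 with a difference of 0.59.

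Among neuronal marker lists, interneuron markers had a median of -0.001 over 21 genes (-0.042 to 0.039 over the fits that each left out 1 animal). Glutamatergic projection neuron markers had -0.061 over 13 genes, and -0.007 without day 21 replicate 2, -0.02 without day 7 replicate 1, -0.039 without day 21 replicate 1 and -0.04 without day 7 replicate 5. Upper layer markers had -0.018 over 15 genes (0.038 with median centring), and -0.036 without day 21 replicate 2 against 0.018 without day 21 replicate 5. Deep layer markers had -0.074 over 18 genes (-0.049 without day 7 replicate 1), in which Pcp4, a calmodulin-binding protein, had ratios of -0.21, -0.35, -0.36, -0.02 and -0.48 in the day 21 animals, against 1.11, -0.24, -0.09, 1.04 and 0.83 in the day 7 animals. Of the day 7 animals 3 lay above the day 21 range and 2 within it. Bcl11b, a transcription factor of neurons that project below the cortex, averaged 0.12 ± 0.38 at day 21 and 0.67 ± 0.5 at day 7 (SD, n = 5 each). Its difference was -0.54 on the brightest probe, while a second probe gave -0.02. Lhx2, counted with the upper layers, is given above, and Vip, an interneuron peptide, averaged -0.27 ± 0.51 at day 21 and -0.93 ± 0.78 at day 7 (SD, n = 5 each). At an unadjusted p under 0.05 by limma were 3 upper layer markers (20%), with Lhx2 and Rspo1 higher and Cdh13 lower. Of the deep layer markers 2 were (11.1%), Pcp4 and Tle4, both lower. The interneuron list had 1 (4.76%) and the projection neuron list 0, against 4.05% over all genes. Lists were chosen with earlier results known.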

How the data were processed

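Gene expression was measured on 2-colour rat arrays, with 43628 spots each. Per the file headers, Agilent Feature Extraction 9.1.3.1 produced the scanner output, and its deposited values are the intensity of each spot and channel with a local background and processed signals. The authors also deposited normalized log2 ratios, Cy5 over Cy3, by a method not given in the sources used here, of which 20 columns served as an alternative. A further 20 columns, the mean log intensities of these arrays, stayed unused.

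Mean signals were background-corrected (normexp, offset 50), normalized by loess within arrays with 2256 control spots at weight 0, turned to sprouting over non-sprouting, averaged per probe and over both arrays of an animal (limma 3.58.1, R 4.3.3). Probes had to be well above background, for 1 or more of the 4 combinations of cell type and day, on a share of arrays of 0.5 or more, with values from 3 or more animals per day, which left 37344 probes of 41012. The brightest probe stood for a gene, and 31823 of 33091 genes were measured in all 10 animals. Names came from the RefSeq table of assembly GRCr8 (10658 probes by accession, 4647 by symbol, 3885 by synonym), and 21822 probes kept the name in the file. No positions are printed.

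Day 21 was compared with day 7 with lmFit and eBayes (2.23 prior degrees of freedom), unpaired, with p-values adjusted over all genes. Levels of each cell type came from the same arrays after Aquantile normalization. Means over animals of single values were compared by exact permutation. The text names, among genes well above background in all 4 groups, the 15 with the smallest p per direction, the 3 of each list with the smallest p where they add to its account, and 25 genes known from axon growth or from earlier results. The members and lists were chosen with earlier results of these data known. Same-numbered animals came from separate cohorts, and their deviations from the group means correlated at -0.2 to 0 across genes, so the numbers do not pair them. Alternatives changed the background correction, normalization, filter, probe choice, moderation, blocking by scan session or replicate, and the animals included. The fit was tested on simulated data. The number of animals limits the precision.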

Additional observations from a re-analysis of the deposited data

Results flagged for a closer look

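In groups of 5 animals, a value was looked at again where its gap to the nearest other animal took more than 0.71 of the range of its group. This held for 10 of 126 groups examined (7.94%). Chance gives about 1 in 20 for independent groups. These groups shared the same animals and held genes picked for small p, so that the 2 rates cannot be compared. Among genes, Cacna1b stood at 0.59 in day 21 replicate 2, where the other day 21 animals lay between -0.1 and 0.02. Kcna1 stood at -0.49 in day 21 replicate 3 (others -0.13 to 0), Nrep at -0.59 in day 21 replicate 5 (others -0.09 to 0.01) and Bbx at -0.23 in day 21 replicate 1 (others -0.02 to 0.03). Rapgef3 stood at -0.003 in day 21 replicate 4 (others -0.19 to -0.15), the animal whose arrays disagreed. Among list medians, immediate early genes stood at 0.25 in day 7 replicate 1 (others -0.12 to -0.02) and presynaptic release at 0.1 in day 7 replicate 3 (others -0.02 to 0). Axon guidance stood at 0.025 in day 21 replicate 1 (others 0 to 0.01), GABAergic interneuron markers at 0.14 in day 21 replicate 3 (others -0.06 to -0.01) and glutamatergic projection neuron markers at -0.3 in day 21 replicate 2 (others -0.02 to 0.05).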

How the results depend on the processing

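In 29 of 30 alternatives 0 genes passed an adjusted p of 0.05, with smallest adjusted p-values from 0.0742 to 1, and 0 passed 0.1 in the main setting. The exception was the fit of single arrays with a random block per animal (4 genes, and 2038 at an unadjusted p under 0.05 against 1340). That fit took its error over arrays, of which the 2 of an animal are 1 replicate. The stricter filter on dim probes left 18684 genes, with 660 at an unadjusted p under 0.05. Leaving out each animal gave 1159 to 1979, leaving out day 7 replicates 1 and 2 (an alternative chosen after seeing the data) 1923, and the replicate block 1085, which changed no call. The difference in the spread over genes was 0.0469 with the processed signals in place of -0.0416, and -0.0597 to -0.0161 without each animal. The counts of levels passing were 0 in each alternative for both cell types.

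The differences of the 30 genes with the smallest p kept their sign in all 867 values over the alternatives, which is no support, since they were picked for small p. Their size depended on the processing, most of all in dim genes. Differences ranged from -0.8 to -0.18 for Pik3cd, from -0.83 to -0.18 for Rapgef3 and from -0.66 to -0.15 for Gdpgp1. Mean log2 levels of these genes were only 6.38 to 6.81. For the brighter Kcna1 the range was -0.78 to -0.48. With the mean over probes Atp2c1 gave 0.05 (unadjusted p = 0.47), Prpf4b 0.06 (0.3) and Rbm27 0.07 (0.23). With the processed signals Ric8a (0.064) and Prpf4b (0.054), and with median centring Nrip3 (0.069), Olfm3 (0.07), Kdelr1 (0.078) and Bbx (0.058), also missed an unadjusted p of 0.05. Over all 135 genes taken by the naming rule, 69 of 3892 values had the other sign. Of 899 list medians over the alternatives 38 moved by more than the spread between animals. With median centring in place of loess they were 0.027 for growth-associated genes, -0.02 for growth-inhibitory signalling, 0.043 for proteoglycans, 0.031 for chromatin regulators, 0.019 for cytoskeleton, 0.094 for oxidative phosphorylation, 0.09 for ribosomal proteins, 0.084 for heat shock, 0.067 for apoptosis, 0.026 for adhesion, 0.064 for the secretory pathway, 0.093 for translation factors, 0.134 for the proteasome and 0.038 for upper layer markers. With the processed signals they were -0.127 for axon guidance, -0.051 for proteoglycans, -0.029 for growth factors, -0.102 for presynaptic release, -0.182 for inflammation, -0.036 for adhesion and -0.136 for blood markers. With the stricter filter they were -0.05 for presynaptic release, -0.13 for inflammation and -0.154 for blood markers, and with the scan day as a block -0.037 for axon guidance, 0.029 for growth factors and -0.1 for blood markers. Growth-inhibitory signalling gave -0.032 with day 21 replicate 4 taken from its Cy3 array alone, and neuropeptides -0.003 with the oligodendrocyte covariate. Without day 7 replicates 1 and 2 axon guidance gave -0.031, proteoglycans -0.025 and blood markers -0.101. Without each animal in turn the ranges were -0.063 to 0.019 for blood markers, -0.029 to 0.012 for proteoglycans, -0.026 to -0.008 for axon guidance and -0.066 to -0.01 for glutamate and GABA receptors. The cause of these shifts was not tested. Signal over background limits dim probes, since in 1 channel only 40.3% of the probes lay well above background.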
